A study of Mus musculus with 6 samples.

Results

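The 10 genes described here encode chemokines made by stromal cells: Ccl2, Ccl7, Ccl8, Ccl11, Cxcl1, Cxcl3, Cxcl5, Cxcl12, Cxcl13 and Cxcl14. They were taken by gene symbol from the 33696 genes counted in each of 6 single-cell RNA-sequencing libraries. All 10 symbols matched 1 gene each. The cells came from the Achilles tendons of Gli1-CreERT2; Ai9 mice, in which tamoxifen makes the Gli1 promoter-driven Cre switch on the tdTomato reporter for good. The sort is thus meant to separate cells that had expressed Gli1 at the time of tamoxifen, with their progeny, from all other cells. Every mouse carried both alleles and received tamoxifen, and the injured mice then had the Achilles tendon cut (tenotomy), a model in which cartilage and bone later form in the tendon. Labelled (Gli1+) and unlabelled (Gli1-) cells were taken from uninjured tendons, at 7 days post injury (dpi) and at 21 dpi, with 1 library for each of the 6 conditions. The labels give 24 mice, 8 per time point and both sexes in equal number, and each library pooled cells of several mice with no map from cells to mice. Ages were not given in the sources used here.

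Chemokines are small secreted proteins that direct the migration of leukocytes through G protein-coupled receptors. Fibroblasts are a main source of them in injured tissue, where Ccl2 and Ccl7 draw monocytes through Ccr2, Ccl8 acts on several Ccr receptors, and Ccl11 (eotaxin) draws eosinophils through Ccr3. Cxcl1, Cxcl3 and Cxcl5 bind Cxcr2 and draw neutrophils, and their transcription is driven by NF-kB after IL-1, TNF or IL-17. Cxcl12 retains Cxcr4-bearing cells and is made by resting stroma and endothelium, Cxcl13 draws B cells through Cxcr5, and Cxcl14 is a homeostatic chemokine of skin and connective tissue.

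To show what the neutrophil-attracting genes Cxcl1 and Cxcl3 share in sequence, the 120 bases before their annotated start of transcription are printed, with Cxcl12 and Cxcl14 for comparison. They are from RefSeq on GRCm38.p6, which listed promoters for 6 of the 10 genes (Ccl8, Cxcl1, Cxcl3, Cxcl12, Cxcl13 and Cxcl14), and are written 5′ to 3′ on the strand of the gene. Cxcl5, Ccl2, Ccl7 and Ccl11 had none listed and were not searched. Capitals mark matches to an NF-kB motif, GGGA and TTCC with 2 bases between them on either strand, and to the TATA box, TATAAA on the gene's strand. Cxcl1 lies on the plus strand at chr5:90891125-90891244, Cxcl3 on the plus strand at chr5:90785981-90786100, Cxcl12 on the plus strand at chr6:117168415-117168534 and Cxcl14 on the minus strand at chr13:56296552-56296671.
Cxcl1: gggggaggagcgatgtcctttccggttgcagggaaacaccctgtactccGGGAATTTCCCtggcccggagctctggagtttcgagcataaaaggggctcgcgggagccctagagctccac
Cxcl3: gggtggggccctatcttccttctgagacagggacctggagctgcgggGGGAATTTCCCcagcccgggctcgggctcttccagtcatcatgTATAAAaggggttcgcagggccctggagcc
Cxcl12: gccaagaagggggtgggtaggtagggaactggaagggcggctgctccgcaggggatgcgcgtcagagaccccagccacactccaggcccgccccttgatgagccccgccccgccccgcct
Cxcl14: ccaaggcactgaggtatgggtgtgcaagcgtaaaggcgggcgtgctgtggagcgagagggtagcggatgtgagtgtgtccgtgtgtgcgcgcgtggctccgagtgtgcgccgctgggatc
Over the 250 bases before the start, Cxcl1 and Cxcl3 held the NF-kB motif and Ccl8, Cxcl12, Cxcl13 and Cxcl14 did not, while 1.21% of 32536 RefSeq promoter windows of that length did. The match began 71 bases before the start in Cxcl1 and 73 bases before it in Cxcl3, and in both it was found on either strand in overlapping positions. TATAAA was found in Cxcl3, Ccl8 and Cxcl13, on the gene's strand in each. On either strand it was found in 12.3% of all windows. A match is a stretch of letters and no evidence of binding.

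After removal of barcodes of low quality, the libraries held between 7508 and 12042 cells, with medians between 4541.5 and 10256.5 unique molecular identifiers (UMIs) per cell. Stromal cells were taken as cells with at least 1 UMI of Pdgfra, the PDGF receptor of fibroblasts, and are called Pdgfra cells. In the order uninjured, 7 dpi and 21 dpi they numbered 1942, 5370 and 5901 in Gli1+ tendon, against 5913, 7362 and 6302 in Gli1- tendon. Of endothelial-like cells, between 1.42% and 4.83% had a Pdgfra UMI, and these cells were shallower than Pdgfra cells. A level is a gene's summed UMIs per 1000000 UMIs of the same cells (CPM). Intervals in brackets are 95% and cover counting error only, since there was 1 library per condition, no spread between mice and no test between conditions. In such sums, fewer expressing cells and less RNA per cell cannot be told apart. CPM of this 3′ assay counts transcripts without a length term, and levels are compared below between conditions rather than between genes.

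Sex markers, dissociation genes and markers of other cell types differed between the libraries. Of the Pdgfra cells at 21 dpi, 94.3% (Gli1+) and 95% (Gli1-) had Xist but no Y-linked UMIs, whereas none of the 5370 Gli1+ and 1 of the 7362 Gli1- Pdgfra cells did so at 7 dpi and none of the 5913 Gli1- cells in uninjured tendon. The uninjured Gli1+ library was mixed, with 64.3% Xist-marked and 21.7% Y-marked cells. This differs from the equal sexes in the labels, and sex and time cannot be told apart for 21 dpi against 7 dpi or, in Gli1- cells, against uninjured. In Pdgfra cells, 10 genes that dissociation raises, such as Fos and Jun, summed to 24722, 12363 and 16171 CPM in Gli1+ cells and to 31808, 13692 and 14749 CPM in Gli1- cells. The 8 epidermal markers summed to 199, 4518 and 814 CPM in the Gli1+ and 18.5, 83.5 and 96.0 CPM in the Gli1- Pdgfra cells. The 8 myeloid markers summed to 102, 5.4 and 6.2 CPM in the Gli1+ and 7.89, 5.74 and 7.42 CPM in the Gli1- Pdgfra cells, and the 9 lymphoid markers to 161, 6.39 and 30.4 CPM and to 4.96, 6.81 and 30.8 CPM. The libraries shared between 27 and 75 barcodes per pair, at most 0.534% of the smaller. The part of these features in the results below was not tested beyond the values given.

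The first comparison asked how the 10 chemokines in stromal cells differed between injured and uninjured tendon within each sort. At 7 dpi the neutrophil attractants, Ccl2, Ccl7 and Ccl8 were higher in both sorts, and Ccl11 and Cxcl14 were lower. Cxcl12 was higher in Gli1+ cells only, and Cxcl13 was lower in Gli1- cells only. A log2 ratio past 0.58 in size, the fold threshold of the study's methods, is counted as higher or lower, among genes with at least 20 UMIs over both libraries. All 10 genes passed this filter in all 6 comparisons.

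At 7 dpi against uninjured in Gli1+ Pdgfra cells, 7 of the 10 (Ccl2, Ccl7, Ccl8, Cxcl1, Cxcl3, Cxcl5 and Cxcl12) were higher, beside 22.2% of the 18437 genes tested. Ccl11 and Cxcl14, 2 of the 10, were lower, beside 35.2% of all genes. The median log2 ratio was 1.41 for the chemokines and -0.21 for all genes. In Gli1- Pdgfra cells 6 of the 10 (Ccl2, Ccl7, Ccl8, Cxcl1, Cxcl3 and Cxcl5) were higher, beside 23.6% of 18745 genes, and 3 (Ccl11, Cxcl13 and Cxcl14) were lower, beside 29.9%. Here the median was 0.68 for the chemokines and -0.11 for all genes.

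At 21 dpi against uninjured, 7 of the 10 (Ccl7, Ccl8, Cxcl1, Cxcl3, Cxcl5, Cxcl12 and Cxcl14) were higher in Gli1+ Pdgfra cells, beside 15.1% of 17984 genes, and Ccl11 was the 1 gene lower, beside 38.5%. The medians were 1.13 for the chemokines and -0.35 for all genes. In Gli1- Pdgfra cells 4 of the 10 (Ccl7, Ccl8, Cxcl3 and Cxcl5) were higher, beside 21.2% of 18146 genes, and 2 (Ccl11 and Cxcl13) were lower, beside 30.2%. Here the chemokines had a median of 0.31 and all genes one of -0.14.

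From 7 to 21 dpi, 3 of the 10 (Cxcl3, Cxcl13 and Cxcl14) were higher in Gli1+ Pdgfra cells, beside 11.4% of 18569 genes, and 3 (Ccl2, Ccl7 and Ccl11) were lower, beside 21.9%. In Gli1- Pdgfra cells 3 (Cxcl3, Cxcl5 and Cxcl14) were higher, beside 14.4% of 18924 genes, and Ccl2, Ccl7 and Ccl11 were again the 3 that were lower, beside 15.8%. The medians were 0.31 for the chemokines and -0.13 for all genes in Gli1+ cells, and 0.12 and -0.05 in Gli1- cells. The comparisons within a sort share their uninjured or 7 dpi library, so their counts are not independent of each other. Scaling by TMM raised every log2 ratio of a comparison by a fixed shift, which was 0.31 and 0.46 at 7 and 21 dpi over uninjured in Gli1+ cells, 0.14 and 0.20 in Gli1- cells and 0.14 at 21 over 7 dpi in Gli1+ cells.

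**Figure D1:**
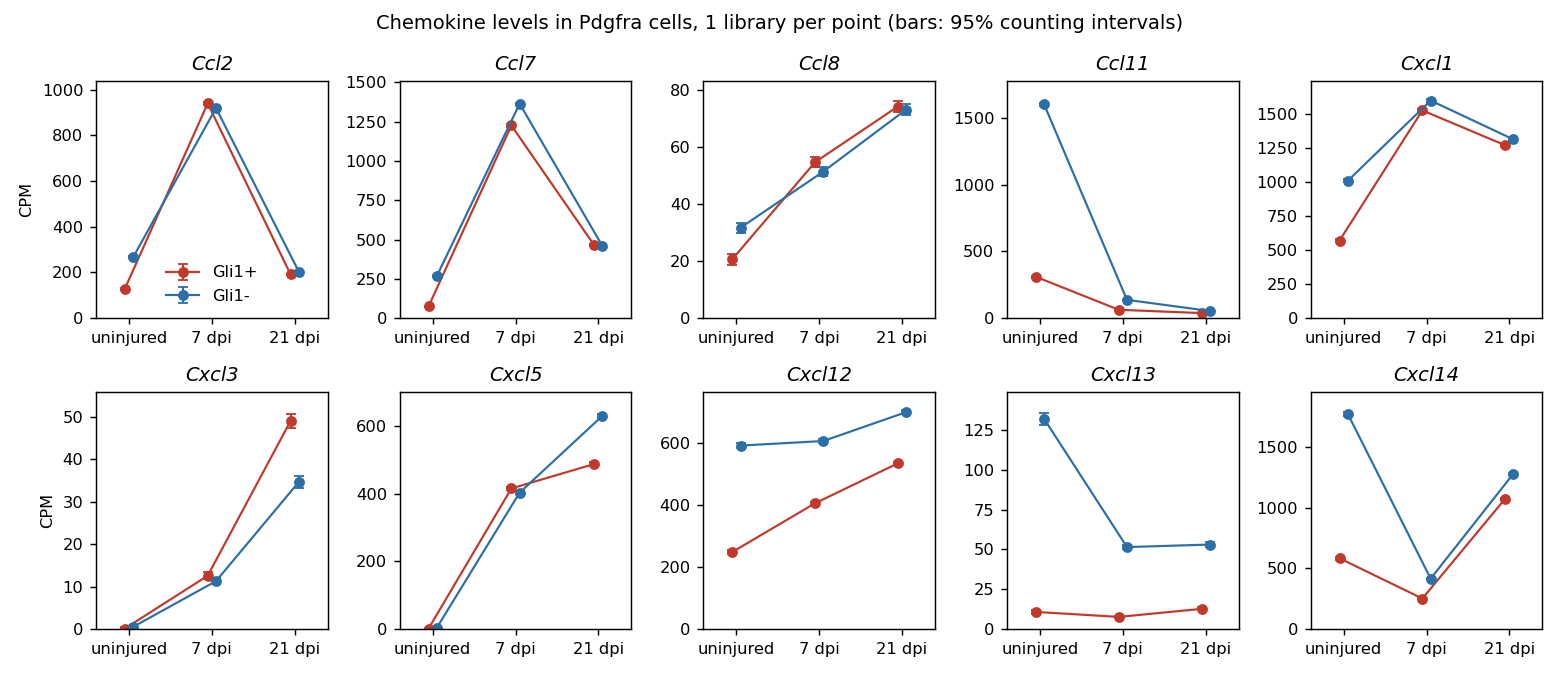
Level of each of the 10 chemokines in Pdgfra cells (CPM, linear axis from 0) by time, with Gli1+ libraries in red and Gli1- libraries in blue and bars for the 95% counting interval. Ccl2 and Ccl7 are highest at 7 dpi in both sorts, Ccl11 is highest in uninjured Gli1- cells at 1599.8 CPM, Cxcl3 and Cxcl5 are near 0 before injury, and Cxcl14 is lowest at 7 dpi.

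Ccl2 and Ccl7, neighbouring genes of the monocyte-attracting group, peaked at 7 dpi in both sorts. Ccl2 measured 129 (124 to 134), 939 (932 to 947) and 192 (189 to 195) CPM in Gli1+ Pdgfra cells of uninjured, 7 dpi and 21 dpi tendon, and 267 (262 to 272), 919 (913 to 925) and 204 CPM in Gli1- cells. Both 7 dpi libraries stood above the other 4, and the uninjured Gli1+ library was the lowest. The 7 dpi level was 7.27-fold the uninjured level in Gli1+ cells, a log2 ratio of 2.86 (2.81 to 2.92), and 3.44-fold in Gli1- cells, a log2 ratio of 1.78 (1.76 to 1.81). By 21 dpi Ccl2 was below its 7 dpi level by log2 ratios of -2.29 (Gli1+) and -2.17 (Gli1-), and against uninjured it did not pass the threshold in either sort, at 0.57 and -0.39. With TMM scaling the Gli1+ value at 21 dpi over uninjured became 1.03 and passed.

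Ccl7 followed the same order of time points from a lower base in Gli1+ cells. Its levels were 75.4, 1226 and 464 CPM (Gli1+) and 268, 1364 and 458 CPM (Gli1-) in Pdgfra cells. Again both 7 dpi libraries were highest, and unlike Ccl2 both 21 dpi libraries stayed above both uninjured libraries. The 7 dpi to uninjured ratio was 16.3-fold in Gli1+ cells (log2 4.02, 3.95 to 4.10) and 5.09-fold in Gli1- cells (log2 2.35, 2.32 to 2.38), and at 21 dpi it was 6.16-fold and 1.71-fold. Among Pdgfra cells thinned to 2000 UMIs, a Ccl7 UMI was detected in 7.54%, 62.7% and 29.5% (Gli1+) and in 16.8%, 65.4% and 29.4% (Gli1-), against 17.5%, 84.2% and 50.1% and 27.7%, 86.1% and 50.6% at full depth. Endothelial-like cells, which serve as a guide to free RNA, had one in 0.658%, 20% and 2.7% (Gli1+) and in 2.30%, 19.1% and 4.86% (Gli1-) of thinned cells. They were fewer, with as few as 61 cells and a median of 2722 UMIs in Gli1+ tendon at 7 dpi.

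Ccl2 and Ccl7 were often found in the same cells. At 7 dpi a Ccl2 UMI was present in 66.9% of the 3329 thinned Gli1+ Pdgfra cells with Ccl7 and in 34.4% of the 1977 without, and in Gli1- cells in 63.9% and 35.2%. The excess was present at the other times too, with 35.9% against 6.58% in uninjured Gli1+ and 36.1% against 14.3% in uninjured Gli1- cells, and 31.4% against 10% and 32.9% against 11.9% at 21 dpi.

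Ccl8, a further ligand of the same gene cluster, had lower levels and a later maximum. It measured 20.6, 54.7 and 74.2 CPM (Gli1+) and 31.7, 51.4 and 73.1 CPM (Gli1-) in Pdgfra cells. In both sorts the order was uninjured, 7 dpi, 21 dpi, and the sorts were close at each time after injury. Against uninjured, 7 dpi stood at log2 ratios of 1.41 (1.26 to 1.55) for Gli1+ and 0.70 (0.61 to 0.79) for Gli1- cells, and 21 dpi at 1.85 and 1.21. From 7 to 21 dpi the ratios of 0.44 and 0.51 were under the threshold, and the first passed it narrowly with TMM scaling (0.58). When cells were chosen by Pdgfra after thinning, the ratios over uninjured were 2.27 and 2.68 for Gli1+ and 1.44 and 1.81 for Gli1- cells. Among Y-marked Pdgfra cells alone, the Gli1- value at 7 dpi was 0.56, under the threshold, and the Gli1+ value was 2.51.

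Ccl11, the eosinophil attractant, moved the other way. Its level was 310.1 (303 to 318), 63.1 (61.2 to 65.0) and 38.4 (36.9 to 39.9) CPM (Gli1+) and 1599.8 (1588 to 1612), 137 and 54.0 CPM (Gli1-) in Pdgfra cells. Each sort was highest uninjured and lowest at 21 dpi, and in uninjured tendon the Gli1- level was far above the Gli1+ level. Relative to uninjured, 7 dpi was 4.92-fold lower in Gli1+ (log2 -2.30, -2.35 to -2.24) and 11.6-fold lower in Gli1- cells (log2 -3.54, -3.57 to -3.51), and 21 dpi was 8.07-fold and 29.6-fold lower. Over the alternatives run, the log2 ratios lay between -2.89 and -1.54 (Gli1+) and between -3.75 and -2.32 (Gli1-) at 7 dpi and between -3.24 and -2.56 and between -5.0 and -3.95 at 21 dpi, with the smallest Gli1- changes when cells were chosen by Pdgfra after thinning. Thinned shares of cells with a Ccl11 UMI went from 31.1% to 11.3% and 7.80% among Gli1+ cells and from 77.8% to 22.2% and 12% among Gli1- cells, while endothelial-like cells of the Gli1- sort had it in 9.97%, 4.46% and 0.830%. In cells marked by the same sex, the Gli1+ ratios were -2.89 at 7 dpi and -2.89 at 21 dpi, and the Gli1- ratio at 7 dpi was -3.75. Between 7 and 21 dpi the Gli1+ ratio was -0.72, or -0.57 and so under the threshold with TMM scaling, and the Gli1- ratio was -1.35.

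Cxcl1, Cxcl3 and Cxcl5, the ligands of the neutrophil receptor Cxcr2, were higher after injury, with Cxcl1 in Gli1- cells at 21 dpi short of the threshold, but from different starting levels. They and Cxcl2 are close in sequence, as are the Ccl genes among themselves, and reads that fit more than 1 of them cannot be told apart in these counts. Cxcl1 was present in uninjured stroma, at 572 (Gli1+) and 1012 (Gli1-) CPM. It measured 1529.8 and 1273 CPM at 7 and 21 dpi in Gli1+ and 1603 and 1316 CPM in Gli1- Pdgfra cells, so that all 4 injured libraries lay above both uninjured ones. Its log2 ratios over uninjured were 1.42 (1.39 to 1.45) and 1.15 for Gli1+ cells and 0.66 and 0.38 for Gli1- cells, the last under the threshold, which it passed narrowly with TMM scaling (0.58). When cells were thinned to 2000 UMIs and then chosen by Pdgfra again, which changed both the depth and the cells, the Gli1+ ratio at 21 dpi was 0.57 and the Gli1- ratio at 7 dpi 0.51, both under the threshold, and with thinning of the same cells alone they were 0.76 and 0.60, past it. A Cxcl1 UMI was found in 38.2%, 75.9% and 58.1% of thinned Gli1+ and 58.2%, 80.6% and 62.4% of thinned Gli1- Pdgfra cells, and in 5.9%, 35% and 26% and in 15.7%, 38.9% and 26.1% of endothelial-like cells.

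Cxcl5 was nearly absent before injury. Its level was 0.990 (0.613 to 1.51), 416 (411 to 421) and 488 (483 to 494) CPM (Gli1+) and 3.48 (2.93 to 4.10), 404 and 631 (625 to 637) CPM (Gli1-) in Pdgfra cells. The 4 injured libraries were well apart from the 2 uninjured ones, with the highest value in Gli1- cells at 21 dpi. At 7 dpi Cxcl5 was 420-fold (275 to 679) its uninjured level in Gli1+ cells and 116-fold in Gli1- cells, with log2 ratios of 8.72 (8.10 to 9.41) and 6.86 (6.62 to 7.11), and at 21 dpi the ratios were 8.95 and 7.50. The uninjured Gli1+ value rests on 21 UMIs, and over the alternatives run the Gli1+ log2 ratio lay between 7.09 (cells chosen by Pdgfra after thinning) and 10.89 (Y-marked cells) at 7 dpi and between 7.03 and 9.41 at 21 dpi, and the Gli1- ratio between 6.67 and 7.77 and between 7.07 and 8.62. Between 7 and 21 dpi the log2 ratio was 0.23 in Gli1+ and 0.65 in Gli1- cells, and these became -0.60 and -0.09 when the cells of highest UMI count were left out as possible doublets.

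Fewer cells carried Cxcl5 at 21 than at 7 dpi. A Cxcl5 UMI was found in 26.1% of thinned Gli1+ Pdgfra cells at 7 dpi and 13.6% at 21 dpi, and in 24.4% and 18.1% of Gli1- cells, against 51.3% and 25.2% and 49.7% and 35.2% at full depth. Before injury these thinned shares were 0.156% and 0.399%, and in endothelial-like cells after injury they were between 1.62% and 5.93%. The highest 10% of cells held 69.4% (Gli1+) and 70.8% (Gli1-) of the 3228 and 4115 thinned Cxcl5 UMIs at 7 dpi and 93.5% and 88.9% of the 3219 and 4621 at 21 dpi.

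Cxcl3 was the least abundant of the 3 and had its maximum at 21 dpi. It measured 0.0943 (0.0114 to 0.340), 12.5 and 49.0 CPM (Gli1+) and 0.493 (0.301 to 0.761), 11.3 and 34.6 CPM (Gli1-) in Pdgfra cells. The uninjured Gli1+ value rests on 2 UMIs. In the Gli1+ sort the ratio of 7 dpi to uninjured was 133 (36.7 to 1101), and in the Gli1- sort it was 22.8, a log2 ratio of 4.51 (3.88 to 5.23). Over the alternatives run these log2 ratios lay between 5.86 and 7.95 and between 3.26 and 4.72. From 7 to 21 dpi Cxcl3 was 3.91-fold (Gli1+) and 3.08-fold (Gli1-) higher, at log2 ratios of 1.97 and 1.62. Over the alternatives run, the Gli1+ ratio lay between 1.06 (highest-UMI cells left out) and 2.21 and the Gli1- ratio between 1.30 and 1.85. Yet the thinned share of cells with a UMI was 1.41% and 1.62% for Gli1+ and 1.0% and 1.5% for Gli1- cells. Cells with Cxcl3 often had Cxcl5 as well, in 57.3% (45.4 to 68.7) of 75 Gli1+ cells at 7 dpi and 72.3% (62.2 to 81.1) of 94 at 21 dpi, against 25.7% and 12.6% of cells without Cxcl3. In Gli1- cells the figures were 46.1% against 24.2% at 7 dpi and 67.4% against 17.4% at 21 dpi.

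**Figure D2:**
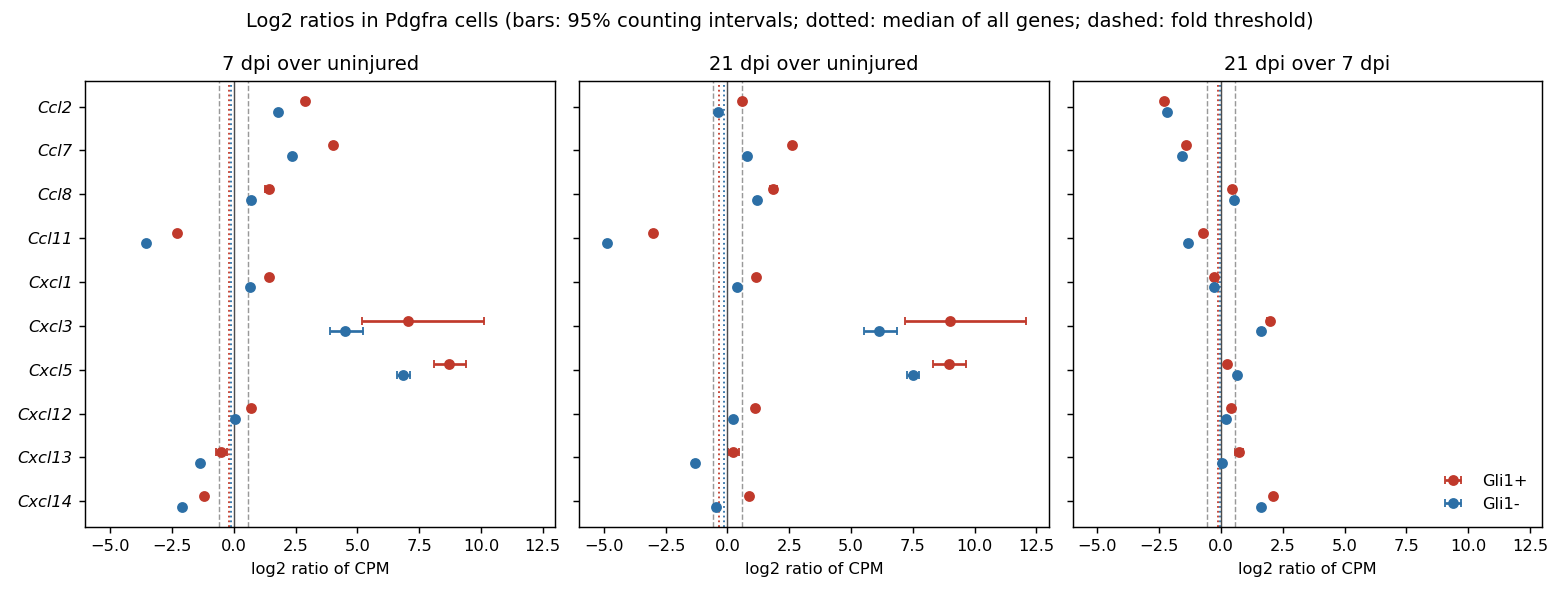
Log2 ratio of CPM in Pdgfra cells for each chemokine in 3 comparisons (7 dpi over uninjured, 21 dpi over uninjured and 21 over 7 dpi), Gli1+ in red and Gli1- in blue, with 95% counting intervals, dashed lines at the threshold of 0.58 either way and dotted lines at the median of all genes. Cxcl3 and Cxcl5 are far to the higher side over uninjured in both sorts, Ccl11 is on the lower side in all 3 panels, and Ccl2 and Ccl7 are lower at 21 than at 7 dpi.

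Cxcl12, which binds Cxcr4 and Ackr3, differed least with injury in Gli1- cells. Its level was 249, 406 and 536 CPM (Gli1+) and 593, 608 and 701 CPM (Gli1-) in Pdgfra cells. The 3 Gli1- libraries were all above the 3 Gli1+ libraries. Gli1+ cells passed the threshold over uninjured at 7 dpi with 0.71 (0.67 to 0.75) and at 21 dpi with 1.11, whereas the Gli1- ratios were 0.04 (0.01 to 0.06) and 0.24. The latter passed without the highest-UMI cells (0.67) and when cells were chosen by Pdgfra after thinning (0.71), but not with thinning of the same cells alone (0.54).

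Cxcl13, the B cell attractant, had higher levels in Gli1- than in Gli1+ cells at each time. It measured 10.7, 7.55 and 12.6 CPM (Gli1+) and 132, 51.5 and 53.1 CPM (Gli1-) in Pdgfra cells. All 3 Gli1- libraries lay above all 3 Gli1+ libraries, and the uninjured Gli1- library was the highest. Among Gli1- cells, 7 dpi was 2.57-fold and 21 dpi 2.49-fold lower than uninjured, with log2 ratios of -1.36 and -1.32. The latter was -0.36 when cells were chosen by Pdgfra after thinning and -0.78 with thinning of the same cells alone. In Gli1+ cells the ratios of -0.50 (-0.73 to -0.27) and 0.24 (0.02 to 0.45) were under the threshold. They also depended on the scaling and the cells used. At 21 dpi TMM scaling gave 0.69, the Xist-marked cells 1.19 and cells chosen by Pdgfra after thinning 1.67. The Y-marked cells gave -2.24 at 7 dpi.

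Cxcl14, the homeostatic chemokine, had its minimum at 7 dpi. Levels were 581, 250.4 and 1073 CPM (Gli1+) and 1771, 414 and 1279 CPM (Gli1-) in Pdgfra cells. The 7 dpi library was the lowest of its sort in both cases, and the highest library was 21 dpi in Gli1+ but uninjured in Gli1- cells. At 7 dpi it was 2.32-fold lower than uninjured in Gli1+ (log2 -1.22, -1.25 to -1.18) and 4.28-fold lower in Gli1- cells (log2 -2.10, -2.11 to -2.08), the latter at -1.38 when cells were chosen by Pdgfra after thinning. From 7 to 21 dpi it was 4.29-fold and 3.09-fold higher, at log2 ratios of 2.10 and 1.63. Over the alternatives run these lay between 1.63 and 2.24 (Gli1+) and between 0.86 and 1.69 (Gli1-). The Gli1+ level at 21 dpi passed the threshold over uninjured (0.88), and the Gli1- level, at -0.47, did not. The Gli1+ value was under the threshold with thinning of the same cells (0.45), with cells chosen by Pdgfra after thinning (0.17) and with the mean of per-cell CPM (0.50). Cells with Cxcl14 had Ccl11 more often than cells without, in 44.8% against 26.3% of uninjured Gli1+ and 87.7% against 67.0% of uninjured Gli1- thinned cells, and at 7 dpi in 19.5% against 8.69% and 34.3% against 16.0%.

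The second comparison set the 2 sorts side by side at each time. In uninjured tendon the Gli1+ level was below the Gli1- level for all 10 chemokines, with log2 ratios from -0.62 for Ccl8 to -3.63 for Cxcl13, all past the threshold, beside 11.5% of 17439 genes lower and 24.4% higher. The median log2 ratio was -1.71 for the chemokines and 0.13 for all genes. Ccl11 stood at -2.37, Ccl7 at -1.83, Cxcl5 at -1.81, Cxcl14 at -1.61, Cxcl12 at -1.25, Ccl2 at -1.0 and Cxcl1 at -0.82, and Cxcl3 at -2.39 (-5.53 to -0.35). After injury most of these gaps were smaller. At 7 dpi Ccl2, Ccl7, Ccl8, Cxcl1, Cxcl3 and Cxcl5 lay between -0.15 and 0.16, and Cxcl13 (-2.77), Ccl11 (-1.12), Cxcl14 (-0.73) and, narrowly, Cxcl12 (-0.58, -0.60 to -0.56) were past the threshold, which makes 4 of the 10 lower and none higher, beside 6.78% and 10.4% of 19178 genes. At 21 dpi Cxcl13 (-2.07) was the 1 chemokine past the threshold, beside 8.67% of 18255 genes lower and 5.03% higher, and the other 9 lay between -0.49 for Ccl11 and 0.50 for Cxcl3. The uninjured Gli1+ library also differed from the Gli1- one in its immune markers and in the sexes given above, and the part of these in the gap was not tested. By the marker panels described below, the uninjured Gli1+ library held 3106 lymphoid-like and 414 myeloid-like cells, and the uninjured Gli1- library 4 and 7. The purity of the sorts was not tested.

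Cells carrying several of the chemokines together were most frequent at 7 dpi. At 2000 UMIs per cell, 5 or more of the 10 were detected in 0.832%, 20.4% and 8.66% of Gli1+ and 9.57%, 25.6% and 11.1% of Gli1- Pdgfra cells at the 3 times.

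The cell types that carried the chemokines were then compared, with types taken from panels of marker genes and named after the panel. Genes outside the panels matched the names, since Vwf lay between 129 and 227 CPM in endothelial-like cells and at most 4.54 CPM in mesenchymal-like cells, and Pdgfrb between 335 and 611 CPM in mural-like cells and at most 129 CPM in mesenchymal-like cells. Apart from uninjured Gli1+ tendon, the Pdgfra cells held the greater part of each of the 10 genes in every library, and of all UMIs. In Gli1- tendon they held 40564117 of 62710551, 97574998 of 122826699 and 70748734 of 113505814 UMIs of the kept cells. Of the Ccl2 UMIs there they held 84.2%, 85.7% and 69.9%, and of Cxcl5 89.2%, 90.1% and 88.6%. Cxcl12 in uninjured Gli1- tendon was at 58.8%, with 593 CPM in Pdgfra cells against 652 CPM in all kept cells. The uninjured Gli1+ library was different, with 21219717 of 70996617 UMIs in Pdgfra cells. There they held 48.1% of Ccl2, 42.2% of Ccl7, 19.8% of Ccl8, 33.7% of Cxcl13 and 5.56% of Cxcl3 (2 of 36 UMIs). That library was the 1 with more than 50 immune cells, 3106 lymphoid-like and 414 myeloid-like cells, where the other 5 had at most 8 of either type. The myeloid-like cells measured 419 CPM of Ccl2, 357 of Ccl7, 304 of Ccl8, 115 of Cxcl1 and 75.1 of Cxcl13, and 2.52 of Ccl11 and 0 of Cxcl5. They carried 26.2% of that library's Ccl2 UMIs, 33.7% of Ccl7, 49.1% of Ccl8 and 39.8% of Cxcl13. Lymphoid-like cells stayed at or below 9.67 CPM for each of the 10.

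The level of Cxcl12 per UMI was higher in vascular cells of uninjured tendon than in stroma. Endothelial-like cells measured 1713, 485 and 281 CPM (Gli1+) and 982, 603 and 342 CPM (Gli1-), which is 689%, 119% and 52.5% and 166%, 99.1% and 48.8% of the Pdgfra cell level. The fibroblast transcript Dcn was at 0.708%, 16.7% and 2.96% and at 3.40%, 10.4% and 6.51% of its Pdgfra cell level in the same cells, well under the Cxcl12 values. Mural-like cells (pericytes and smooth muscle by their markers) had 613, 327 and 268 CPM (Gli1+) and 732, 562 and 359 CPM (Gli1-). Thus Cxcl12 was highest uninjured in both vascular types and both sorts, and in Pdgfra cells highest at 21 dpi. The uninjured endothelial-like cells carried 29.0% (Gli1+) and 22.3% (Gli1-) of their library's Cxcl12 UMIs.

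Ccl11 and Cxcl1 were also counted in mural-like cells. Ccl11 measured 104, 106 and 180.2 CPM there in Gli1+ and 308, 108 and 62.8 CPM in Gli1- tendon, and Cxcl1 157, 442 and 1019.6 CPM and 351, 364 and 467 CPM, where endothelial-like cells held Cxcl1 between 39.6 and 329.8 CPM. After injury the mural-like level of Ccl11 was above that of Pdgfra cells in Gli1+ tendon at 21 dpi (180.2 against 38.4 CPM), and at 7 dpi in Gli1+ and 21 dpi in Gli1- tendon it was above it by less than its counting interval. These values rest on few cells, between 51 and 143 in each library apart from the uninjured Gli1- one with 665, and the 51 of Gli1+ tendon at 7 dpi held epidermal Krt15 at 573 CPM. Epidermal-like cells had Cxcl14 at 340.5, 95.1 and 525 CPM in Gli1+ tendon and 455 CPM in Gli1- tendon at 21 dpi, and no Cxcl13 UMI.

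**Figure D3:**
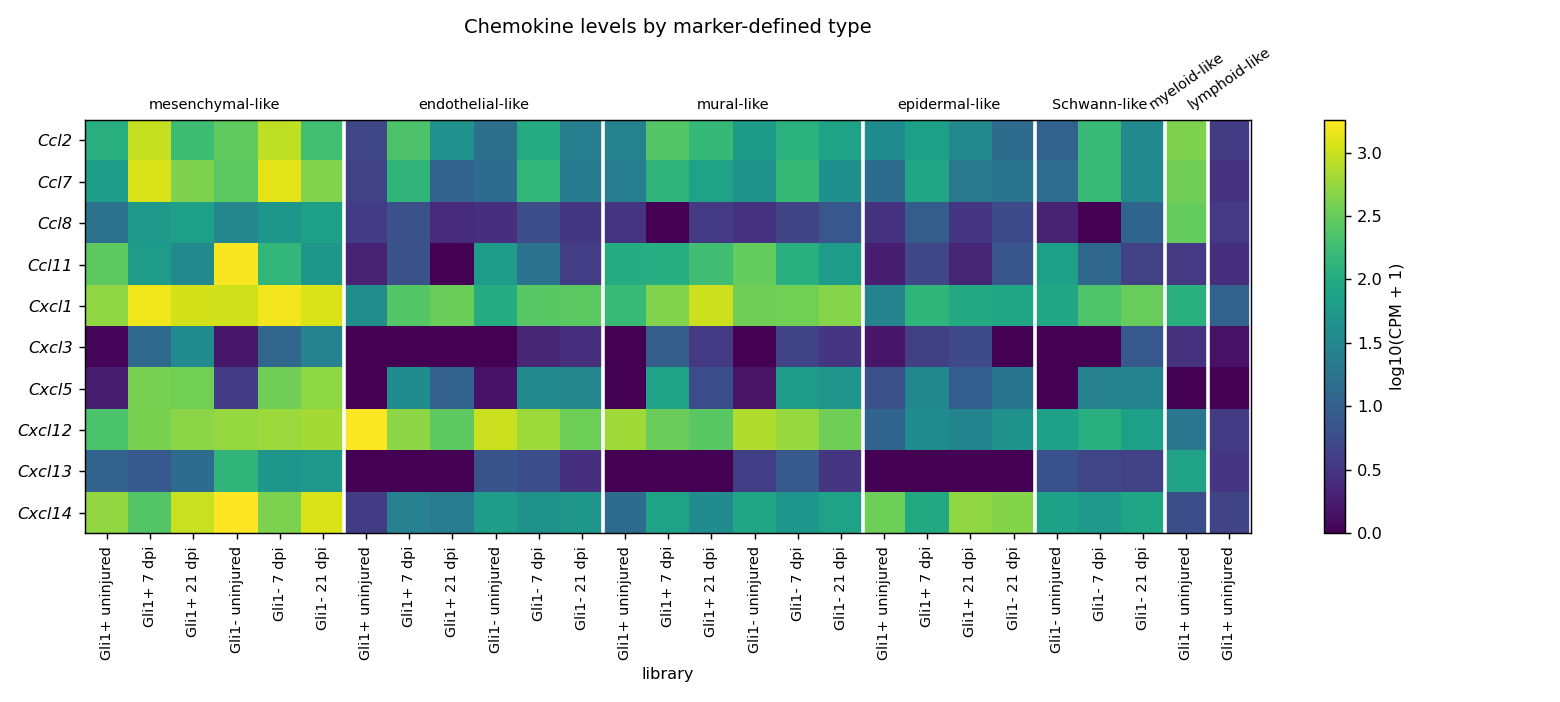
Levels of the 10 chemokines (rows) as log10(CPM + 1) in each marker-defined cell type and library with at least 50 cells (columns), brighter for higher. Stromal cells carry most of the 10, while Cxcl12 is also high in endothelial-like and mural-like cells, and Ccl2, Ccl7 and Ccl8 in the myeloid-like cells of uninjured Gli1+ tendon.

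Within the stroma, cells with at least 10 UMIs of Saa3, an acute-phase gene of activated fibroblasts, stood apart in their neutrophil attractants. They were 396 (7.37%) and 980 (16.6%) of the Gli1+ Pdgfra cells at 7 and 21 dpi and 577 (7.84%) and 1264 (20.1%) of the Gli1- cells, and were deeper than the rest, with median UMIs of 16504.5 against 9206 in Gli1+ and 17220 against 8791 in Gli1- cells at 21 dpi. Cxcl5 measured 1678 CPM in the Gli1+ cells with Saa3 and 78.0 CPM in the others at 21 dpi, and 1792 and 90.1 CPM in Gli1- cells. Cxcl3 was at 162 against 10.1 and at 95.4 against 6.30 CPM. As log2 ratios at 21 dpi, Cxcl5 was at 4.43 (4.38 to 4.48) and 4.31 (4.27 to 4.36) and Cxcl3 at 4.0 (3.87 to 4.14) and 3.92 (3.75 to 4.10), where the median of all genes was -0.12 in both sorts, and 8.80% (Gli1+) and 8.64% (Gli1-) of genes were past the threshold on the higher side. At 7 dpi the Cxcl5 ratios were 1.60 and 1.71 and those of Cxcl3 were 0.52 and 1.02.

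Most Cxcl5 and Cxcl3 of the stroma at 21 dpi lay in these cells. They held 88.1% (Gli1+) and 90.3% (Gli1-) of the Cxcl5 UMIs and 84.7% and 87.6% of the Cxcl3 UMIs of the Pdgfra cells, against 26.3% and 29.8% and 14.4% and 20.7% at 7 dpi. For Cxcl1 they held 47.9% and 52.7% at 21 dpi. These shares include the greater depth of the cells. With a gate of 2 or more Saa3 UMIs among 2000, the gated cells were 18.0% and 25.9% of cells at 21 dpi. They then held 34.7% and 41.2% of Cxcl1, 81.6% and 84.4% of Cxcl5 and 87.9% and 76.2% of Cxcl3. At 7 dpi they were 6.82% and 7.07% of cells and held 20.6% and 22.9% of Cxcl5 and 8.42% and 18.6% of Cxcl3. In Pdgfra cells under 10 Saa3 UMIs, Cxcl5 was lower at 21 than at 7 dpi, at 78.0 against 343 CPM in Gli1+ (log2 -2.14) and 90.1 against 320.0 CPM in Gli1- cells (log2 -1.83), and Cxcl1 was at 892 against 1473 and 912 against 1562 CPM.

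The other chemokines were divided differently by the same gate. Ccl2 was higher in cells with Saa3 at all 4 points, with log2 ratios of 0.95 and 1.12 at 7 and 21 dpi for Gli1+ and 0.83 and 1.04 for Gli1- cells, while Ccl11 was lower at -0.60 and -1.48 and at -1.18 and -1.55. Ccl8 was at -1.40 and -0.90 at 21 dpi, and Cxcl12 at -0.01 and 0.08. At 7 dpi Cxcl12 was higher in Gli1+ cells with Saa3 (0.67) and at 0.47 in Gli1- cells, and at even depth it was at 0.87 and 0.73 at 7 dpi and 0.30 and 0.24 at 21 dpi. Cxcl14 was higher in cells with Saa3 at 21 dpi (0.87 and 1.10, or 0.84 and 0.88 at even depth), and Cxcl13 differed in sign between the sorts (2.06 for Gli1+ and -0.42 for Gli1-, or 2.67 and -0.38). Even depth here means a gate of 2 or more Saa3 UMIs among 2000, with which the 21 dpi ratios were 4.33 and 3.95 for Cxcl5, 5.05 and 3.19 for Cxcl3, 1.3 and 1.0 for Cxcl1 and 1.04 and 0.87 for Ccl2. Those of Ccl11 were smaller in size at even depth, at -1.0 and -0.67. At 7 dpi its Gli1+ ratio was also smaller (-0.42, under the threshold), and its Gli1- ratio was larger (-1.31). Ccl8 at 21 dpi was at -0.89 and -0.54, the latter under the threshold. At 7 dpi and even depth Ccl8 was at 0.13 and 0.29, on the other side of 0 and under the threshold. Ccl7 at even depth was at 0.85 and 0.575 (Gli1+) and at 0.57 and 0.38 (Gli1-) at 7 and 21 dpi. Of the Saa3 cells at 21 dpi, 15.6% (Gli1+) and 20.6% (Gli1-) had markers of another lineage, against 13.1% and 13.5% of the other Pdgfra cells.

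**Figure D4:**
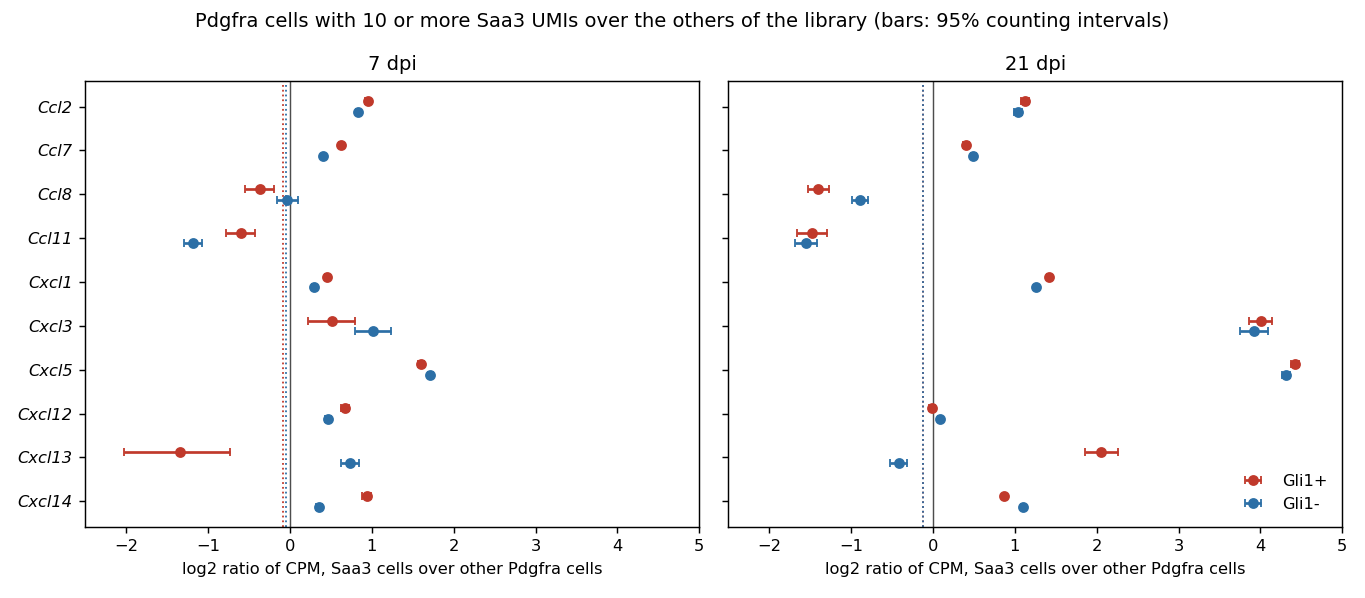
Log2 ratio of CPM in Pdgfra cells with at least 10 Saa3 UMIs over the other Pdgfra cells, for each chemokine at 7 and 21 dpi, Gli1+ in red and Gli1- in blue, with 95% counting intervals. Cxcl3 and Cxcl5 lie near 4 at 21 dpi in both sorts, and Ccl11 is below 0 at both times.

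Cells with Tnn, which encodes tenascin-W of healing matrix, also had more Cxcl5. They were 61.3% and 28.5% of Gli1+ and 55% and 30% of Gli1- Pdgfra cells at 7 and 21 dpi. Their Cxcl5 level over that of the other Pdgfra cells was at log2 ratios of 1.03 and 2.13 (Gli1+) and of 1.5 and 1.7 (Gli1-). Ccl11 was lower in them, at -1.83 and -2.47 and at -1.88 and -2.12, and so was Ccl8, at -0.67 and -1.24 and at -1.11 and -1.19. Cells with both Scx and Fmod, genes of the tendon lineage, had low Ccl11, with ratios of -3.69, -1.71 and -2.75 at the 3 times in Gli1+ and -2.23 and -2.31 after injury in Gli1- cells. Their Cxcl12 was also lower, between -0.71 and -1.41, and their Ccl2 was within 0.39 of the other cells either way.

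Cells with Pi16 or Dpp4, markers of adventitial fibroblasts, had higher Ccl8, past the threshold in 5 of the 6 libraries. Its ratios there were 1.35, 0.88 and 1.46 for Gli1+ and 0.52, 1.15 and 0.84 for Gli1- cells. Ccl7 was at 0.51, 0.40 and 0.86 and at 0.22, 0.38 and 0.78, whereas Cxcl5 was lower in this subset at 21 dpi, at -1.8 and -1.5. Cycling cells, with Mki67 or Top2a, were 28.9% (Gli1+) and 21.2% (Gli1-) of Pdgfra cells at 7 dpi, and Ccl11 was lower in them at all 6 points, between -1.10 and -1.49. Cells with Col2a1 and Acan, cartilage matrix genes, numbered 143 and 239 at 21 dpi and had less Cxcl12 (-1.79 and -1.84), Ccl8 (-2.29 and -1.92) and Ccl11 (-1.53 and -1.73) than the other Pdgfra cells. The subsets overlap each other, and their gates depend on a cell's depth.

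Over the 27 sums of a cell type in a library, the genes whose log2(CPM + 1) was most like each chemokine were ranked among 16912 genes by Pearson's r. The sums share libraries and their depths, and the values describe likeness only. Ccl7 was nearest to Ccl2 (r = 0.95), followed by Colgalt1 (0.90) and Ecm1 (0.86), and Ccl7 in turn had Ccl2, Colgalt1 (0.91) and Dnm1 (0.89). Cxcl5 was most like Tnn (0.95), Acan (0.94) and Brinp3 (0.93), and Cxcl3 like Il11 (0.87), Jtb (0.82) and Acan (0.81). Ccl11 had Ebf2 (0.92), Cygb and Naalad2 (both 0.91), and Cxcl14 had Smoc2 (0.92), Naaladl2 and Bnc2 (both 0.88). For Cxcl1 the 3 were Igfbp4 (0.93), Mxra8 and Nnmt (both 0.92), and for Cxcl12 Fat4, Meox2 (both 0.93) and Eln (0.92). Ccl8 (Gm26535 0.91, Dtnbp1 0.86, Klhl33 0.84) and Cxcl13 (Tnfsf13b and Mcoln2 0.86, C3 0.81) completed the set.

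Among the 30 other chemokine ligands counted, Cxcl2, the remaining close relative of Cxcl1 and Cxcl3, was higher after injury in both sorts. It measured 33.0, 422 and 475 CPM (Gli1+) and 34.1, 403 and 443 CPM (Gli1-) in Pdgfra cells. The counts of this list stand beside 22.2% of all genes higher and 35.2% lower at 7 dpi and 15.1% and 38.5% at 21 dpi in Gli1+ cells, and 23.6% and 29.9% and then 21.2% and 30.2% in Gli1- cells. At 7 dpi over uninjured, 5 of the 19 other ligands tested in Gli1+ cells were higher and 8 lower, with a median log2 ratio of -0.40, and among Gli1- cells 8 of 22 were higher and 5 lower, with a median of 0.22. At 21 dpi, 4 of 20 were higher and 9 lower in Gli1+ cells, and 8 of 19 were higher and 8 lower in Gli1- cells. Ccl20 had no UMI in either uninjured library and 6.32 and 6.77 (Gli1+) and 7.82 and 4.49 (Gli1-) CPM after injury.

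Of the chemokine receptors, 1 of the 18 tested at 7 dpi in Gli1+ cells was higher and 15 lower, beside 22.2% and 35.2% of all genes, and 1 of 11 was higher and 10 lower in Gli1- cells, beside 23.6% and 29.9%, and at 21 dpi none was higher while 15 of 16 and 7 of 10 were lower, beside 38.5% and 30.2% of all genes lower. Ackr3, the scavenging receptor of Cxcl12, was abundant, at 572, 323 and 462 CPM (Gli1+) and 895, 436 and 479 CPM (Gli1-) in Pdgfra cells. Cxcr4, the receptor of Cxcl12 on leukocytes, measured 23.4, 0.609 and 0.806 CPM (Gli1+) and 3.08, 0.389 and 1.72 CPM (Gli1-) in Pdgfra cells.

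The response genes of NF-kB and IL-17 signalling, a route that also acts on Cxcl1, Cxcl3 and Cxcl5, are the next list. Of the 12, 8 were higher and 2 lower at 7 dpi and 7 higher and 2 lower at 21 dpi in Gli1+ Pdgfra cells, and 6 and 1 and then 5 and 2 in Gli1- cells, with medians of 1.03, 0.98, 0.57 and 0.51. Higher genes made up 22.2%, 15.1%, 23.6% and 21.2% of all genes in these 4 comparisons, and lower genes 35.2%, 38.5%, 29.9% and 30.2%. Zc3h12a was lower in all 4. The others lower were Icam1 (Gli1+ at 7 dpi), Tnfaip3 (Gli1+ at 21 dpi) and Nfkbiz (Gli1- at 21 dpi), and Tnfaip3 was higher in Gli1- cells at 7 dpi. Saa3 measured 5.14, 353 and 5156 CPM (Gli1+) and 11.5, 396 and 6717 CPM (Gli1-) in Pdgfra cells. Csf3, the granulocyte growth factor, measured 0.0943, 9.09 and 47.1 and 4.44, 12.1 and 77.5 CPM, with the time order of Cxcl3. Vcam1 and Lif instead were highest at 7 dpi, at 159 and 33.4 CPM (Gli1+) and 188 and 33.1 CPM (Gli1-) in Pdgfra cells. Of the 13 cytokines and receptors upstream of chemokine transcription, 2 of 11 were higher and 5 lower at 7 dpi in Gli1+ and 0 of 9 and 5 in Gli1- cells, and at 21 dpi 3 of 12 and 5, and 1 of 10 and 4, read against the same shares of all genes. The 5 lower in Gli1+ cells were Tnf, Il17a, Il17f, Ifng and Ifngr1 at both times. Il17a was counted at 167 CPM (11853 UMIs) over all kept cells of the uninjured Gli1+ library and at 0 in the other 5 libraries. That library held 3106 lymphoid-like cells and each of the others at most 4. Whether Il17a differed with injury within a cell type was not tested.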

How the data were processed

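Tendon cells were sorted and measured by 3′ single-cell RNA-seq (Chromium v3) in 6 libraries. The authors deposited counts, the UMIs per gene and called barcode, without normalization. The submitters' processing notes name Cell Ranger 3.1.0, STAR and mm10, whereas the matrix headers name Cell Ranger 9.0.0, so no coordinates were taken from the files. Barcodes were kept with at least 200 genes, 1000 UMIs and a log10 gene to log10 UMI ratio of 0.7, and at most 5% mitochondrial and 5% haemoglobin UMIs. No doublet caller was run. UMIs of cells with 1 or more Pdgfra UMIs were summed per library and divided by their total (CPM), with exact Poisson intervals, and ratios and shares with exact binomial (Clopper-Pearson) intervals, at 95%. A cell took the type with the most markers detected, if it had at least 2 and more than for any other type. Cells with 3 or more markers of more than 1 type were called mixed and left out of the types. They were between 8.42% (uninjured Gli1+) and 21.0% (Gli1- at 21 dpi) of kept cells. After the data were seen, a non-mesenchymal marker was counted only above 5 times its median in the library, since free keratin RNA reached most cells of 1 library. Shares of cells used 2000 drawn UMIs per cell. edgeR 4.0.16 (R 4.3.3) gave the TMM factors, and all else used Python 3.11.15, NumPy 2.4.6, SciPy 1.17.1 and pandas 2.3.3. The script was tested on simulated data. All 10 genes are named. The genes, lists and subset gates were chosen with earlier results of these data known. Alternatives were TMM scaling, other gates, filters and thresholds, thinning before or (added after seeing the data) after the choice of cells, removal of likely doublets or mixed cells, a per-cell mean and cells of 1 sex.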

Additional observations from a re-analysis of the deposited data

Results flagged for a closer look

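Of the 10 chemokines, 3 differed from uninjured in opposite directions in the Gli1+ and Gli1- Pdgfra cells at 21 dpi. The counting intervals of both sorts left out 0 for each. The same held for 6.55% of the 17353 genes tested in both sorts. The log2 ratio of Cxcl13 was 0.24 in Gli1+ and -1.32 in Gli1- cells, a gap of 1.55. Its Gli1+ value rests on few cells, which the counting interval does not take into account. A Cxcl13 UMI was found in 0.416% of 1924 thinned uninjured Gli1+ Pdgfra cells, with at most 10 in a cell. At 21 dpi it was found in 0.912% of 5810, with at most 38 in a cell. Cxcl14 was at 0.88 and -0.47, a gap of 1.35, and Ccl2 at 0.57 and -0.39, a gap of 0.96. With 1 library per condition these differences between the sorts were not tested. Of the 6 values those of Cxcl14 in Gli1+ and Cxcl13 in Gli1- cells passed the threshold of 0.58. Both were under it when cells were chosen by Pdgfra after thinning, at 0.17 and -0.36. The uninjured levels were lower in the Gli1+ than in the Gli1- library for all 3 genes, at 10.7 against 132, 581 against 1771 and 129 against 267 CPM.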

How the results depend on the processing

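The 12 counts of chemokines past the threshold stayed within 1.5 times their reported value under each alternative that was run, with 1 exception. The count lower in Gli1- cells at 21 dpi over uninjured was 4 in place of 2 with cells chosen by the mesenchymal marker panel. There Ccl2 (-0.63) and Cxcl14 (-0.60) crossed the threshold. Within the margin of 1.5 times the members still changed. At a threshold of log2 1, each comparison lost members. Over uninjured these were Cxcl12 (0.71) at 7 dpi and Cxcl14 (0.88) at 21 dpi in Gli1+ cells. In Gli1- cells they were Ccl8 (0.70) and Cxcl1 (0.66) at 7 dpi and Ccl7 (0.77) at 21 dpi. At 21 over 7 dpi they were Cxcl13 (0.74) and Ccl11 (-0.72) in Gli1+ and Cxcl5 (0.65) in Gli1- cells. The Gli1- ratio of Cxcl5 at 21 over 7 dpi turned from 0.65 to -0.090 with the highest-UMI cells left out, where the Gli1+ ratio went from 0.23 to -0.60, and the Gli1- ratio was under the threshold with the marker panel (0.50), thinning of the same cells (0.40) and the per-cell mean (0.38). TMM scaling moved 49 of the 60 log2 ratios beyond their counting interval, thinning of the same cells 53 of 58, thinning before the choice by Pdgfra, which changes the cells too, 56 of 58, the per-cell mean 51, leaving out the highest-UMI cells 46 and reversed 1, the marker panel 42, the lineage filter 32, the gate of 2 Pdgfra UMIs 30, all deposited barcodes 13, Y-marked cells 15 of 20 and Xist-marked cells 7 of 10. Thinned cells gave no ratio for Cxcl3 over uninjured Gli1+ cells, where no UMI was left. The Gli1+ ratio of Cxcl13 at 7 dpi over uninjured ranged from -2.24 to 0.22 over the alternatives. The cause of these shifts was not tested. No paired analysis was possible because each comparison set 1 library against 1, and no replicate could be left out. A sort difference over the 3 times was not tested. Depth limits Cxcl3 in uninjured tendon and the types with few cells.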
